A study of Mus musculus with 11 samples.

Results

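RNA-seq of thymocytes, which are T cells in development, was compared between 3 Puma-/-p21-/-Zmat3-/- mice (TKO) and 4 wild-type mice (wt), which together were 7 of the 11 mice sequenced. The members were chosen by the genotype in the sample labels. The other 4 mice were Zmat3-/- and are used only to ask which differences from wt were also measured when Zmat3 alone was missing. TKO mice came from serial crosses of Zmat3-/- with Puma-/-p21-/- mice, and all mice were kept on a C57BL/6-WEHI background. They were untreated and aged 8 to 12 weeks. Whole thymus was dispersed to a suspension of single cells, with no sort described, and RNA of these cells was used. In bulk RNA of this kind, fewer cells of a type and less RNA per cell cannot be told apart.

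TRP53, the mouse p53 protein, is a transcription factor that stress such as DNA damage activates. Of its targets, Bbc3 encodes PUMA, a BH3-only protein that starts apoptosis by neutralising the survival proteins of the BCL-2 family, and Cdkn1a encodes p21, which arrests the cell cycle by inhibiting cyclin-dependent kinases. Zmat3 encodes a zinc finger protein that binds RNA and takes part in splicing and in the control of RNA stability. Thymocytes are known for their readiness to undergo apoptosis, and most of them are discarded during selection of the T cell receptor.

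Total counts were 22375732 to 39510054 in wt and 17669715 to 80207003 in TKO mice, so 3 counts in 1 library corresponded to 0.0367 to 0.174 CPM (counts scaled by library size). The wt libraries fell into pairs, since log2 CPM across genes correlated at 0.982 to 0.983 within wt mice 1 and 2 or within wt mice 3 and 4 and at 0.891 to 0.923 between them. Between these pairs 3005 of the 13260 genes tested differed by more than 1 on the log2 scale, and for 7395 genes (55.8%) the TKO mean lay between the means of both pairs. Across genes, the difference between the pairs correlated with exon length at a Spearman rho of -0.474. Ribosomal protein genes took 7.01 and 8.79% of counts in wt mice 1 and 2, 3.21 and 3.22% in wt mice 3 and 4, and 3.80 to 4.62% in TKO mice. Mitochondrially encoded genes took 4.25 to 6.31% in wt mice and 8.44, 9.29 and 3.86% in TKO mice 1, 2 and 3, and rRNA 1.73 and 1.93% in wt mice 3 and 4 and 0.239 to 0.736% in the other 5. Their part in the results was not tested. Xist, expressed from the inactive X chromosome of females, was counted at 501 and 611 CPM in wt mice 1 and 2 and at 1498 CPM in TKO mouse 1, whereas the other 4 mice had 0.733 to 2.60 CPM. The labels give neither sex nor batch, so these cannot be told apart from other differences between the wt pairs, and values against each pair are given where they bear on a result. The pairs were set by the likeness of their libraries, so a p-value against a pair leaves out the spread between the pairs. Thymocyte markers were high in both genotypes. Dntt, the enzyme that adds bases at T cell receptor junctions, reached 736 CPM per kb of exon in wt and 697 in TKO mice, the coreceptor gene Cd4 257 and 280, and Cd8b1 806 and 708.

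The 3 targeted genes were lower in every TKO mouse than in every wt mouse, but none of them passed the test after adjustment. Zmat3 was counted at 9.81, 12.1, 27.2 and 27.4 CPM in wt mice 1 to 4 and at 8.13, 8.12 and 7.50 CPM in TKO mice 1 to 3. The TKO mice lay close together, just under wt mouse 1, whereas wt mice 3 and 4 were far above the rest. The log2 fold change (log2FC) from wt to TKO was -1.28 ± 0.394 (SE), with an adjusted p = 0.371 from edgeR's quasi-likelihood test with Benjamini-Hochberg adjustment and p = 0.0857 in an exact permutation test of the 7 mice, which can go no lower than 0.0286. Bbc3 stood at 19.2, 19.8, 17.03 and 18.7 CPM in wt and at 13.0, 15.8 and 11.9 CPM in TKO mice. Its wt mice agreed across both pairs, and the groups did not overlap (log2FC -0.48 ± 0.154, adjusted p = 0.399, exact permutation p = 0.0286). Cdkn1a was the lowest of these genes in CPM, at 8.15, 10.2, 3.58 and 4.25 in wt and 3.55, 3.54 and 2.26 in TKO mice. TKO mice 1 and 2 lay just under wt mouse 3 (log2FC -1.09 ± 0.426, adjusted p = 0.443, exact permutation p = 0.143).

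**Figure D1:**
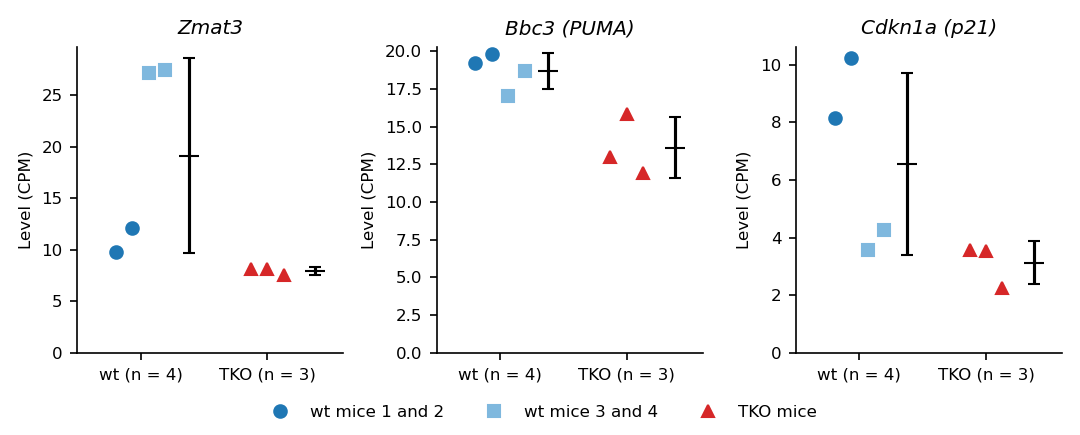
Level of the 3 targeted genes in CPM (linear axis from 0) in the 4 wt and 3 TKO mice, 1 point a mouse, with the mean and SD of each group as a bar beside the points. Every TKO mouse lies below every wt mouse, and wt mice 1 and 2 lie apart from wt mice 3 and 4 for Zmat3 and Cdkn1a but not for Bbc3.

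Against wt mice 3 and 4 alone Zmat3 fell by 1.80 on the log2 scale (adjusted p = 0.00029), and against wt mice 1 and 2 alone its value was -0.49 (adjusted p = 0.0688). For Cdkn1a it was the other way round, with -1.59 (adjusted p = 0.00275) against wt mice 1 and 2 and -0.36 (adjusted p = 0.487) against wt mice 3 and 4. Bbc3 was at -0.55 (adjusted p = 0.0293) against wt mice 1 and 2 and at -0.42 (adjusted p = 0.144) against wt mice 3 and 4, under the fold threshold in both. Counts of all 3 genes thus remained in TKO mice. Which exons each allele lacks is not given in the sources used here, so the counts are no test of the deletions. The genotyping primers of the wild-type Zmat3 allele are shown because they were used to tell it from the knockout allele. They matched the ends of chr3:32362533-32362948 (GRCm38, gene on the minus strand), inside a retained-intron transcript of Zmat3:
Zmat3 wild-type primer 1: tggtccattacttggttggac
Zmat3 wild-type primer 2: agtggttctggaaggcagag

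Across the 13260 genes tested, 32 (0.241%) were called between TKO and wt mice, at an adjusted p under 0.05 and an absolute log2FC above 1.5. Of these, 26 (0.196%) were higher and 6 (0.0452%) lower in TKO mice, and the groups did not overlap for any of the 32. Most other settings also gave more higher than lower genes. With only the mice of low Xist level, however, 47 were higher and 95 lower. Without the fold threshold 39 genes (0.294%) passed, 33 higher (0.249%) and 6 lower (0.0452%). At an unadjusted p under 0.05 there were 1372 genes (10.3%), 553 higher (4.17%) and 819 lower (6.18%). Among the genes that rose were immediate-early and feedback genes of stimulated cells, and processed copies of genes on chromosome 17. When each mouse was left out in turn, 13 of the 32 genes were called in all 7 fits, namely Sik1, Trib1, Tnfaip3, Dnajb9, Tob2, Baiap3, AC165951.1, Gm9825, Gm13443, Atp6v0c-ps2, Hmga1b, Rps2-ps6 and Rps2-ps10. Klf4 was called in 6, and Fosb, Nr4a2, Tnfrsf12a and ENSMUSG00000118642.1 in 5. Gm38226, Gm44777 and Gm48369 were called in 4 and Spry1 and Gm21887 in 3. The calls of the other 9 rested on most of the mice, as Dusp5, Zfp36l2, Vmn2r97 and AC154766.1 were called in 2 fits, Dusp1, Hist1h2bg and D630033A02Rik in 1, and Plk2 and Trav14d-3-dv8 in 0.

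By mean level, 0 of 129 genes under 1 CPM were called, 16 of 4050 from 1 to 10 CPM (0.395%), 13 of 6778 from 10 to 100 CPM (0.192%) and 3 of 2303 above 100 CPM (0.13%). The median SE of log2FC was 0.611 in the lowest of these classes and 0.203 in the highest, so changes of low genes were measured with less precision. The called genes above 100 CPM were Tnfaip3, Zfp36l2 and Tob2. Per kb of exon, the highest of the called protein-coding genes in TKO mice were Zfp36l2 at 152 CPM, Hmga1b at 74.4, Tnfaip3 at 68.7 and Dusp5 at 60.6, and their levels in wt mice were 51.2, 0.291, 17.6 and 17.5 CPM per kb. Sik1 at 27.6, Dnajb9 at 24.4 and Trib1 at 9.25 CPM per kb were lower, and Plk2, at 1.601, was the lowest of the protein-coding genes that rose. For comparison, the targeted genes stood at 0.692 (Zmat3), 6.399 (Bbc3) and 0.878 (Cdkn1a) CPM per kb in TKO mice.

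**Figure D2:**
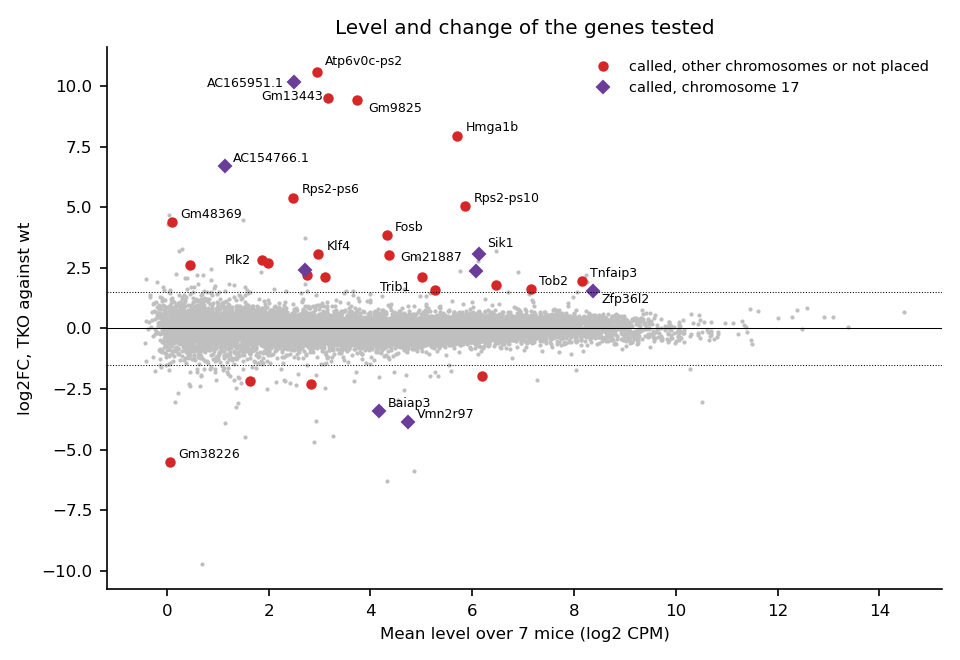
Mean level over 7 mice (log2 CPM) against the log2FC from wt to TKO for the 13260 genes tested, with the 32 called genes coloured and those on chromosome 17 as diamonds. Dotted lines mark the threshold of 1.5, more called genes lie above the upper line (26) than below the lower (6), and the fitted values of genes near 0 counts in a group depend on the prior count.

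Immediate-early genes, whose transcription starts within minutes of a stimulus without new protein synthesis, held the largest number of called members of any list examined. The lists were chosen with earlier results of these data known, so counts within them are a description and not a test. Of 50 listed, 46 were tested (Fosl1, Egr4, Ccn1 and Npas4 were not), 7 were called (0.196% of all genes were called as higher) and 10 passed at any fold change (0.249% of all genes), all of them higher. For 25 of the 46, every TKO mouse was above every wt mouse, compared with 6.78% of all genes, and for 3 it was below (7.02% of all genes). The median log2FC of the list was 0.55, compared with -0.04 for all genes tested. It was 0.52 against wt mice 1 and 2 and 1.07 against wt mice 3 and 4. Without TKO mouse 1, 2 or 3 the immediate-early genes called were 2, 4 and 4.

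Among the transcription factors of this kind, Fosb, an AP-1 subunit, was 3.23, 4.35, 2.11 and 2.01 CPM in wt and 52.9, 19.8 and 55.8 CPM in TKO mice. TKO mouse 2 was the lowest of the 3 and still far above the highest wt mouse (log2FC 3.84 ± 0.433, adjusted p = 0.0146). Klf4, a zinc finger factor of quiescence and pluripotency, was 1.26 to 2.18 CPM in wt and 17.8, 10.504 and 19.03 CPM in TKO mice (log2FC 3.05 ± 0.291, adjusted p = 0.00631). The orphan nuclear receptor gene Nr4a2 was 2.20 to 2.87 CPM in wt and 15.5, 11.1 and 9.87 CPM in TKO mice (log2FC 2.21 ± 0.228, adjusted p = 0.00859). Its relative Nr4a1, which T cell receptor signals induce in thymocytes, was far more abundant, at 104, 111, 78.0 and 84.0 CPM in wt and 208, 218 and 209 CPM in TKO mice, and passed with a log2FC of 1.15 (adjusted p = 0.0354). Klf6 (0.97) and Cited2 (1.13), a transcriptional coregulator, also passed below the fold threshold. Of 12 tested members of the KLF family 1 was called and 2 passed at any fold change, beside 0.196% and 0.249% of all genes, and all 12 had a positive log2FC, as had 6068 of the 13260 genes tested. The lowest, Klf2, was at 0.07 and differed in opposite directions from the wt pairs (-0.47, adjusted p = 0.0348, against wt mice 1 and 2 and 0.94, adjusted p = 0.00397, against wt mice 3 and 4).

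Kinase and pseudokinase genes of the immediate-early list rose as well. Sik1, a salt-inducible kinase that cAMP signalling induces and that restrains CREB coactivators, stood at 13.2, 16.5, 16.8 and 19.6 CPM in wt and at 149, 137 and 139 CPM in TKO mice. Both groups were narrow and lay far apart (log2FC 3.09 ± 0.156, adjusted p = 0.000205). Trib1, a pseudokinase that directs C/EBP proteins to degradation, was 13.3, 12.4, 12.4 and 13.9 CPM in wt and 49.9, 61.5 and 62.1 CPM in TKO mice (log2FC 2.14 ± 0.131, adjusted p = 0.000491). Plk2, a polo-like kinase that is also a TRP53 target, was low at 1.24, 1.54, 0.548 and 0.591 CPM in wt and 8.13, 7.49 and 5.96 CPM in TKO mice (log2FC 2.84 ± 0.411, adjusted p = 0.0479). Its groups were apart, but the wt pairs differed as well. Of 28 tested members of the CREB and salt-inducible kinase list, Sik1, Fosb and Nr4a2 were called, Nr4a1 passed below the fold threshold, and 0 passed as lower, beside 0.196% of all genes called and 0.249% passing as higher. These 4 are also on the immediate-early list.

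Feedback inhibitors of MAP kinase signalling formed another group, with 3 of 21 tested members called, all higher, compared with 0.196% of all genes. A positive log2FC was found for 20 of the 21 and for 6068 of all 13260 genes. These 3 calls depended on single mice, and 0 to 3 of them held when a mouse was left out, with 0 without wt mouse 4, TKO mouse 2 or TKO mouse 3, 1 without wt mouse 2, wt mouse 3 or TKO mouse 1, and 3 without wt mouse 1. Dusp1, a phosphatase that inactivates p38 and JNK, was 32.4, 32.8, 16.0 and 14.6 CPM in wt and 125, 112 and 140 CPM in TKO mice. Both wt pairs were far below the TKO mice, and wt mice 3 and 4 lower than wt mice 1 and 2 (log2FC 2.37 ± 0.322, adjusted p = 0.035). Dusp5, a phosphatase of nuclear ERK, was 48.6, 49.96, 39.2 and 35.4 CPM in wt and 105, 143 and 202 CPM in TKO mice (log2FC 1.77 ± 0.233, adjusted p = 0.0311). Spry1, a Sprouty inhibitor of receptor signalling to ERK, was 4.19, 3.99, 2.40 and 3.46 CPM in wt and 13.5, 17.99 and 15.1 CPM in TKO mice (log2FC 2.12 ± 0.237, adjusted p = 0.0145). For each of these genes the TKO mice did not overlap with wt mice. Ptp4a1, another phosphatase gene, has 2 overlapping entries at its locus, between which reads may be divided, so that the value of each is uncertain. The more abundant entry, ENSMUSG00000117310.2, passed below the fold threshold (log2FC 1.02, adjusted p = 0.0311). The other, ENSMUSG00000026064.16, did not pass over all 7 mice (log2FC 3.72, adjusted p = 0.336) and was called as higher against each wt pair.

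Negative regulators of NF-kB and of mRNA stability were represented by a few abundant genes. Tnfaip3, which encodes the ubiquitin-editing enzyme A20, was 103, 123, 142 and 141 CPM in wt and 443, 499 and 547 CPM in TKO mice (log2FC 1.95 ± 0.16, adjusted p = 0.00275). It was the only called gene among 26 NF-kB subunits and feedback genes (0.196% of all genes were called as higher), and Nfkbia, which encodes an inhibitor that holds NF-kB in the cytoplasm, had a log2FC of -0.02. Zfp36l2, which binds AU-rich elements and promotes decay of the mRNA, was 178, 174, 188 and 182 CPM in wt and 375, 614 and 618 CPM in TKO mice. The wt mice were nearly equal and TKO mouse 1 was the lowest of its group (log2FC 1.55 ± 0.191, adjusted p = 0.0246). Tob2 and Tob1 encode antiproliferative adaptors that recruit the deadenylase complex. Tob2 was 65.2, 68.2, 82.5 and 81.8 CPM in wt and 221, 211 and 262 CPM in TKO mice (log2FC 1.62 ± 0.144, adjusted p = 0.00405), and Tob1 was 18.6 to 22.03 CPM in wt and 50.7 to 53.4 CPM in TKO mice (log2FC 1.33 ± 0.118, adjusted p = 0.00405). Of 35 tested genes of AU-rich element binding and deadenylation, 2 were called and 3 passed at any fold change as higher, beside 0.196% and 0.249% of all genes, and 0 passed as lower. Btg2, a relative of the Tob genes and a TRP53 target, had values in the other direction, at 454 to 515 CPM in wt and 343, 384 and 331 CPM in TKO mice, and did not pass over all 7 mice (log2FC -0.50, adjusted p = 0.326). It was lower than each wt pair below the fold threshold (adjusted p = 0.00694 against wt mice 1 and 2 and 0.0446 against wt mice 3 and 4).

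Dnajb9, which encodes an endoplasmic reticulum co-chaperone of the unfolded protein response, was 18.6, 21.5, 19.5 and 23.2 CPM in wt and 64.3, 59.9 and 62.2 CPM in TKO mice, with no overlap (log2FC 1.57 ± 0.126, adjusted p = 0.00243). It was the only called gene of 26 tested genes of the unfolded protein and integrated stress response, beside 0.196% of all genes called as higher. Hspa5, a chaperone of that compartment chosen after its values were seen, had a log2FC of 0.63 and the transcription factor gene Ddit3 one of -0.50, and neither passed. Ppp1r15a, described below, had the highest log2FC of this list (2.32). It did not pass over all 7 mice (adjusted p = 0.299) and was called as higher against each wt pair. Tnfrsf12a, the receptor of the cytokine TWEAK, was 2.50, 2.32, 2.61 and 1.69 CPM in wt and 12.8, 13.8 and 10.05 CPM in TKO mice (log2FC 2.40 ± 0.231, adjusted p = 0.00631), and was the only called gene of 17 death and TNF receptor genes, where the share over all genes was again 0.196%. Eps8l1, an actin regulator, passed at a log2FC of 1.47 (adjusted p = 0.0335).

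**Figure D3:**
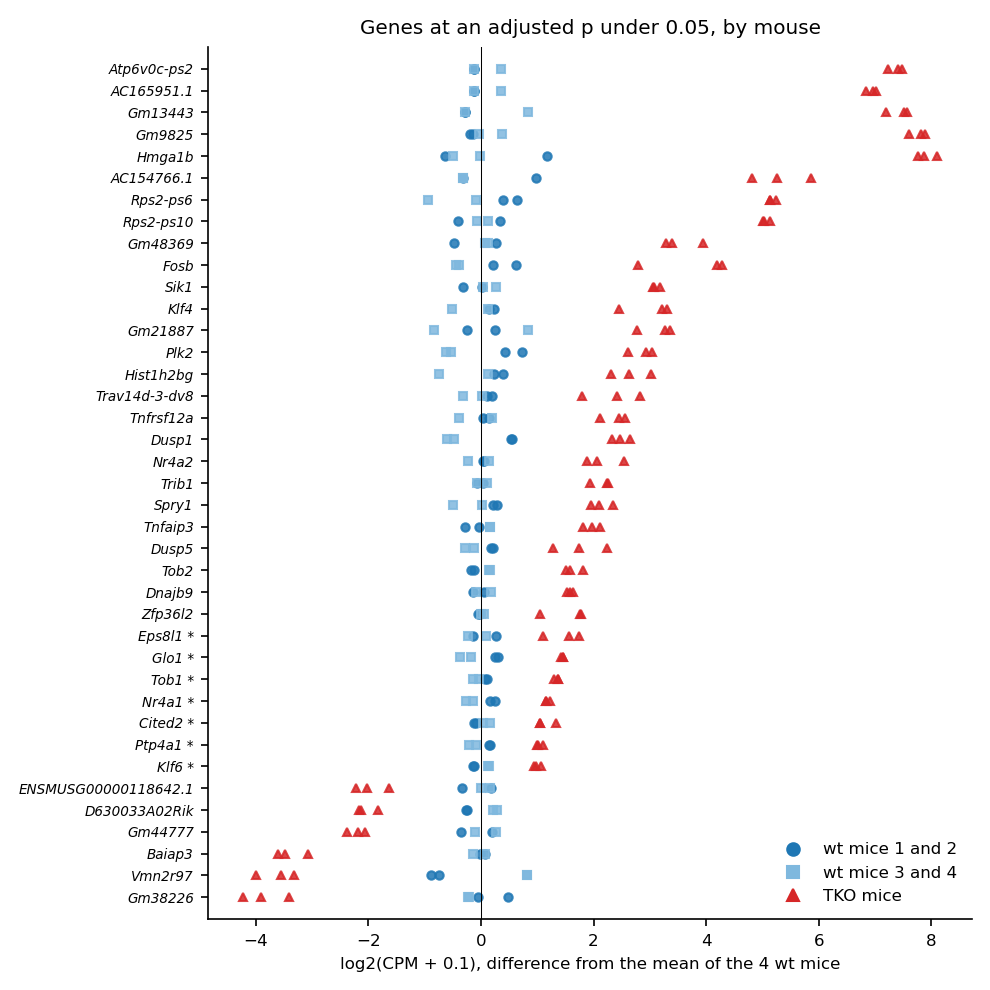
The 39 genes with an adjusted p under 0.05, as log2(CPM + 0.1) minus the mean of the 4 wt mice, 1 point a mouse, with genes below the fold threshold of 1.5 marked by an asterisk. For each gene the 3 TKO mice (triangles) lie on the same side of all wt mice (circles for wt mice 1 and 2, squares for wt mice 3 and 4), and 33 genes lie to the right and 6 to the left.

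The promoters of some of these genes are shown because they hold letters of known response elements. RefSeq promoters (250 bases before to 50 after the start, GRCm38.p6) were matched by symbol for 19 of the 33 genes that passed as higher, with 22 promoters. The cAMP response element TGACGTCA was found in 2 of these 22 promoters (9.09%) and in 1.79% of all 32851. The AP-1 element TGACTCA on either strand was found in 2 of the 22 (9.09%) and in 5.2% of all. The CArG box of serum response factor was in 1 (4.55%) and in 1.63% of all, and the NF-kB motif in 3 (13.6%) and in 4.51% of all. All promoters are those of 27025 genes, tested here or not, so the 2 sets are unlike. A match is a description of these windows and not a site of binding. All motifs were searched on both strands. In the stretches below only the named element is in capitals. The Dusp5 stretch also holds a CArG box at -72 from the start site, left in lower case. Likewise, the Tnfaip3 stretch holds an NF-kB match at -125 in lower case. The stretches lie at chr17:26508572-26508651 (minus strand, Dusp1), chr13:110394946-110395025 (plus strand, Plk2), chr19:53529027-53529108 (plus strand, Dusp5) and chr10:19015504-19015582 (minus strand, Tnfaip3), with the element in capitals:
Dusp1, cAMP response element: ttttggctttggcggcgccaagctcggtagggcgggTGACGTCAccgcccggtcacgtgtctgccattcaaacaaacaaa
Plk2, cAMP response element: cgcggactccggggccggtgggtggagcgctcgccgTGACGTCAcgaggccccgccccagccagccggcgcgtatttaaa
Dusp5, CArG box: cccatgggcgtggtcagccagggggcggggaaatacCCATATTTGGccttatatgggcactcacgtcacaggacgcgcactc
Tnfaip3, AP-1 element: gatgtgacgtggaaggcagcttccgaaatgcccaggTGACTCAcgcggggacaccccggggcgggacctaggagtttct

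Because the wt pairs differed, the TKO mice were also compared with each pair separately, an analysis chosen after the values were seen. It called 661 genes (4.98%) against wt mice 1 and 2 and 193 (1.46%) against wt mice 3 and 4. Against both pairs 61 genes (0.46%) were called in the same direction, and 41 genes of these were higher (0.309%) and 20 lower (0.151%). These comparisons share all their mice with the 7-mouse comparison. A further 19 genes were called in opposite directions. Tob2 was called with all 7 mice but not against both pairs, as its log2FC was 1.77 against wt mice 1 and 2 and 1.48 against wt mice 3 and 4, just under the threshold. Of the 61 genes, 30 were not called in the comparison of all 7 mice, and those named here were chosen for their values. Fos, the partner of Jun in AP-1, was 33.1, 39.6, 2.82 and 3.07 CPM in wt and 212, 130 and 199 CPM in TKO mice. Wt mice 1 and 2 were far above wt mice 3 and 4, and the TKO mice were above both (log2FC 2.29, adjusted p = 0.000334, against wt mice 1 and 2 and 5.92, adjusted p = 3.08e-05, against wt mice 3 and 4). With all 7 mice the adjusted p was 0.349. Jun was 31.1, 37.2, 5.01 and 4.69 CPM in wt and 153, 67.2 and 83.7 CPM in TKO mice, and Ppp1r15a, the regulatory subunit that ends the integrated stress response, was 75.7, 67.9, 16.5 and 14.5 CPM in wt and 271, 183 and 206 CPM in TKO mice. Both showed the pattern of Fos, with the TKO mice highest, wt mice 1 and 2 between, and wt mice 3 and 4 lowest.

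**Figure D4:**
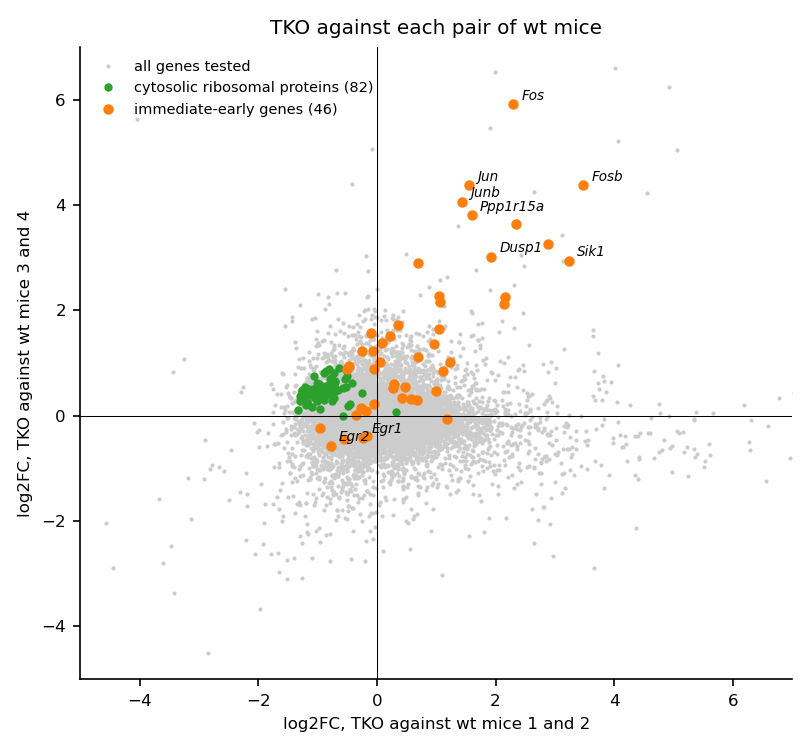
The log2FC of TKO mice against wt mice 1 and 2 (x axis) and against wt mice 3 and 4 (y axis) for the genes tested, within -5 to 7 on both axes, with 40 genes outside this range not drawn. Both axes share the TKO mice. Fos, Fosb, Jun, Junb, Sik1, Ppp1r15a and Dusp1 lie in the upper right quadrant, Egr1 and Egr2 in the lower left, and most ribosomal protein genes are at negative values against wt mice 1 and 2 and at positive values against wt mice 3 and 4.

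Of the 46 immediate-early genes, 18 were higher and 1 was lower than both wt pairs at an adjusted p under 0.05 at any fold change, compared with 0.905% and 0.837% of all genes, and 2 were opposite. Not every immediate-early gene was high in TKO mice, as the examples of Egr1 and Myc, chosen after their values were seen, and of Egr2 show. Egr1, a zinc finger factor that mitogens induce, was 83.2 to 105 CPM in wt and 71.1, 76.3 and 78.6 CPM in TKO mice (log2FC -0.32, adjusted p = 0.435). Egr2, which T cell receptor signals induce, was 18.8 to 24.3 CPM in wt and 12.2, 15.2 and 12.2 CPM in TKO mice (log2FC -0.67, adjusted p = 0.241), and Myc had a log2FC of -0.64. In both Egr genes every TKO mouse was below every wt mouse. Heat shock genes, which respond to stress of the cells, were followed beside these genes. Their summed level was 3471 to 5297 CPM in wt and 4884 to 6430 CPM in TKO mice with overlapping groups, 0 of 20 were called (0.241% of all genes), and Hspa1a, an inducible chaperone, was 5.28, 24.7, 0.337 and 0.945 CPM in wt and 124, 44.7 and 10.55 CPM in TKO mice (log2FC 2.91, adjusted p = 0.494). Against wt mice 3 and 4 alone Hspa1a and Hspa1b, its near-identical neighbour, were called as higher (log2FC 6.52 and 5.47, adjusted p = 0.0265 and 0.0312), where 1.46% of all genes were called, and against wt mice 1 and 2 they did not pass (adjusted p = 0.111 and 0.124). Their part in the result was not tested.

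Other TRP53 targets were examined by role. Of 13 tested targets that act on the cell cycle, Plk2 was called and Tob1 passed at any fold change, both as higher, beside 0.196% and 0.249% of all genes, and Btg2 was the member that was lower than both wt pairs. Among 15 targets of apoptosis, 14 of metabolism and redox and 14 of DNA repair and feedback, 0 were called and 0 passed at any fold change. With 0.241% of all genes called and 0.294% passing, a count of 0 in lists of this size is near the background and says little about the members. Their median log2FC was -0.03, 0.11 and -0.04. For the apoptosis and metabolism targets its sign turned with the wt pair, from -0.31 and -0.19 against wt mice 1 and 2 to 0.07 and 0.23 against wt mice 3 and 4. Of 29 tested regulators of TRP53 0 were called and 0 passed at any fold change (median 0.14). Their median was 0.14 against wt mice 1 and 2 and -0.02 against wt mice 3 and 4. Kat5, an acetyltransferase of TRP53, was 48.8 to 59.8 CPM in wt and 41.03, 32.4 and 42.98 CPM in TKO mice (log2FC -0.53, adjusted p = 0.314), so the groups lay apart. Trp53 itself, chosen after its values were seen, was 111 to 143 CPM in wt and 106, 123 and 119 CPM in TKO mice, with overlap. Ddb2, a damage sensor of nucleotide excision repair, was 63.7 to 83.0 CPM in wt and 63.2, 60.8 and 54.3 CPM in TKO mice (log2FC -0.34), and Ccng1, a cyclin gene that TRP53 induces, was 75.1 to 103 CPM in wt and 108, 126 and 97.9 CPM in TKO mice (log2FC 0.25). The groups lay just apart for Ddb2 and overlapped for Ccng1. In the remaining BH3-only genes, Bcl2l11, which encodes BIM, the chief BH3-only protein of thymocyte selection, was 73.1, 91.0, 93.3 and 104 CPM in wt and 154, 171 and 146 CPM in TKO mice. Every TKO mouse was above every wt mouse, and the gene did not pass over all 7 mice (log2FC 0.78 ± 0.15, adjusted p = 0.138) but did against each wt pair (adjusted p = 0.00151 and 0.0139). Pmaip1, which encodes NOXA and was chosen after its values were seen, had a log2FC of 0.75 (adjusted p = 0.426), and Bad, another BH3-only gene, -0.26.

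Counts of 0 called genes were also found in lists of cell cycle, repair and thymocyte genes, which is near the background of 0.241%. These were the 7 tested survival proteins of the BCL-2 family, 24 genes of BAX, BAK and caspases, 25 of CDK inhibitors and G1 regulators, 46 of DNA replication, 47 of mitosis, 22 of the damage checkpoint, 8 of mismatch repair, 24 of homologous recombination and 17 of V(D)J recombination and end joining. For DNA replication 39 of 46 had a negative log2FC, with a median of -0.22, but the sign turned with the wt pair (-0.44 against wt mice 1 and 2 and 0.10 against wt mice 3 and 4). The same held for 82 cytosolic ribosomal protein genes, with a median of -0.40, made up of -0.95 and 0.45 against the pairs. The genes of the T cell receptor complex (17 tested, median -0.21), of early double-negative (22, 0.15), double-positive (18, 0.04) and mature thymocytes (28, -0.07) gave 0 called genes as well. The median of the receptor complex was -0.46 against wt mice 1 and 2 and 0.07 against wt mice 3 and 4. For the thymocyte lists, in the same order, it was -0.07, 0.15 and -0.16 against wt mice 1 and 2. Against wt mice 3 and 4 it was 0.012, -0.04 and 0.005. In the last of these, Cxcr4, a chemokine receptor that guides thymocytes, was 229, 223, 293 and 304 CPM in wt and 112, 144 and 153 CPM in TKO mice. All TKO mice were below all wt mice, the adjusted p over 7 mice was 0.128 (log2FC -0.96), and against each wt pair it was 0.00291 and 0.00224. Summed markers of other cells overlapped between TKO mice and the 4 wt mice. The summed level of myeloid markers was 468 to 869 CPM in wt and 381 to 934 CPM in TKO mice, of B cell markers 1085 to 2218 and 1061 to 1827 CPM, of stroma 284 to 444 and 293 to 398 CPM, and of erythroid markers 872 to 8703 and 2705 to 3735 CPM. Of the 25, 18, 27 and 7 tested markers 0 were called, and 0 listed markers were at 0 counts in all 7 mice. Against wt mice 1 and 2 alone, 5 of the 7 erythroid markers were called as higher in TKO mice, where 4.98% of all genes were called in either direction, with a sum of 872 and 1083 CPM in these wt mice and no overlap. Against wt mice 3 and 4 the median of the erythroid markers was -0.56 and 0 were called. Of the stromal markers 2 were called against wt mice 1 and 2, Fn1 as higher and Krt14 as lower, and 0 against wt mice 3 and 4. The part of these cells in other results was not tested.

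Some of the largest rises were of copies of protein-coding genes. The antisense gene AC165951.1, which is not matched to a parent, stood among them and is described with the remaining genes. Processed pseudogenes arise when an mRNA is copied back into the genome, so they resemble the spliced parent gene. Gm9825 was 0.0245 to 0.0843 CPM in wt and 27.7, 32.2 and 33.7 CPM in TKO mice, at least 247-fold higher when wt is set to 3 counts in the library where these weigh most. Atp6v0c-ps2 was listed at 0 in wt mice 1 to 3 and 0.0394 CPM in wt mouse 4, and at 16.2, 19.4 and 18.3 CPM in TKO mice, at least 142-fold higher. Gm13443 was likewise at least 165-fold higher. All wt mice were at or under 3 counts for these genes, and such floors cover counting error only. Hmga1b, annotated as protein-coding, was 0.220 to 1.03 CPM in wt and 108, 117 and 138 CPM in TKO mice (log2FC 7.95 ± 0.494, adjusted p = 0.000491). Rps2-ps10 was 2.86 to 4.86 CPM in wt and 126, 137 and 127 CPM in TKO mice (log2FC 5.05 ± 0.204, adjusted p = 7.19e-05), and Rps2-ps6 was 0.0843 to 0.453 CPM in wt and 12.4, 13.3 and 12.4 CPM in TKO mice (log2FC 5.39 ± 0.431, adjusted p = 0.00243). In none of them did any wt mouse come near a TKO mouse.

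Each of these 6 copies lies on a chromosome other than 17, and each shares most of its sequence with a parent gene on chromosome 17. By words of 31 bases, Hmga1b shared 92.7% with Hmga1, Atp6v0c-ps2 92.9% with Atp6v0c, Gm13443 86.5% with Glo1, Gm9825 82.2% with Rnps1, and Rps2-ps10 and Rps2-ps6 82.1 and 73.3% with Rps2. The parents lie 1.49 to 4.93 Mb from Cdkn1a. Reads that match parent and copy alike are divided by the quantification, so the levels of both are uncertain. Within the pair, the copy held at most 0.847% of the CPM in wt and Zmat3-/- mice. In TKO mice it held 68.7 to 70.4% for Hmga1b, 31.8 to 35.4% for Gm9825, 18.9 to 20.9% for Rps2-ps10, 16.1 to 17.6% for Atp6v0c-ps2, 7.71 to 9.49% for Gm13443 and 2.25 to 2.50% for Rps2-ps6.

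**Figure D5:**
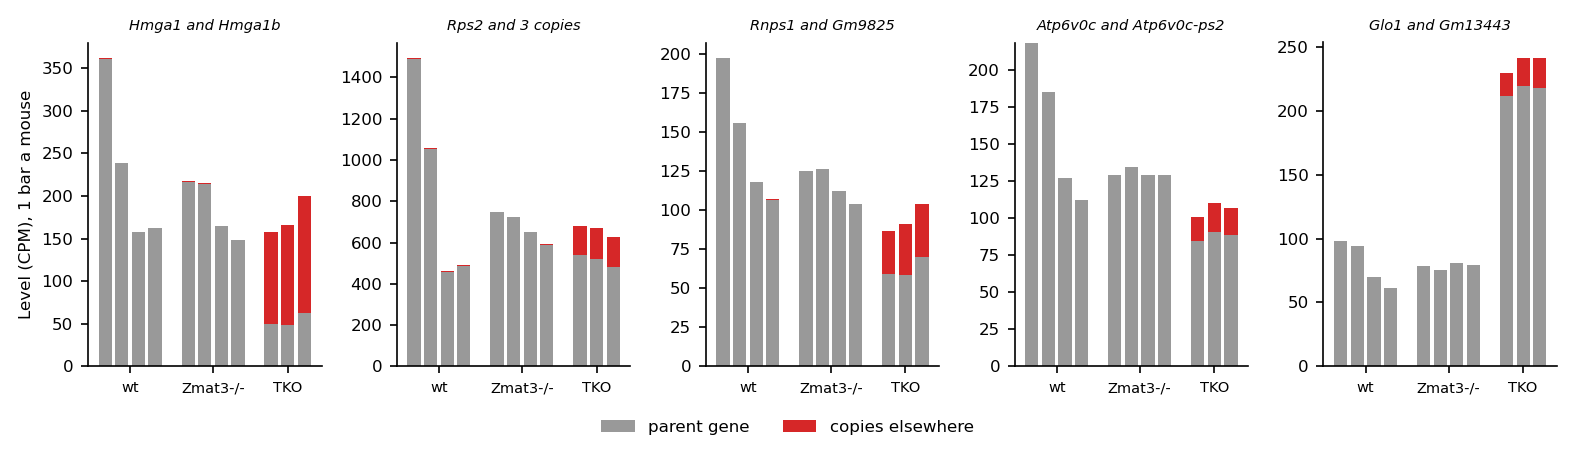
Level in CPM (linear axis from 0) of 5 parent genes on chromosome 17 (grey) and of their copies on other chromosomes (red, stacked), 1 bar a mouse, for 4 wt, 4 Zmat3-/- and 3 TKO mice in the order of their numbers. The copies are visible in TKO mice and almost absent in the others, and the height of the whole bar exceeds that of wt mice in TKO mice for Glo1 with Gm13443.

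Parent and copy were also added together for the 5 parents on chromosome 17. For Hmga1, an architectural chromatin protein gene, with Hmga1b the sum was 158 to 362 CPM in wt and 158 to 200 CPM in TKO mice, while Hmga1 itself was 361, 238, 157 and 162 CPM in wt and 49.4, 49.2 and 62.1 CPM in TKO mice (log2FC -2.12, adjusted p = 0.0635). Hmga1 alone was called as lower against each wt pair. Its log2FC was -2.50 against wt mice 1 and 2 and -1.59 against wt mice 3 and 4 (adjusted p = 0.000124 and 0.000227). For Rps2, a ribosomal protein gene, with 3 copies the sum was 461 to 1494 and 625 to 678 CPM. For Atp6v0c, a subunit of the proton pump of lysosomes, it was 113 to 219 and 101 to 110 CPM, and for Rnps1, a splicing coactivator gene, 107 to 197 and 86.9 to 104 CPM. The groups overlapped for Hmga1 and Rps2 and lay just apart, TKO below wt, for Atp6v0c and Rnps1. Glo1, which detoxifies methylglyoxal, differed from the others. Its sum was 61.4 to 98.3 CPM in wt and 229 to 241 CPM in TKO mice, and Glo1 alone was 98.3, 94.3, 69.8 and 61.3 CPM in wt and 212, 219 and 218 CPM in TKO mice (log2FC 1.40 ± 0.19, adjusted p = 0.035).

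To show how alike parents and copies are, a stretch of 60 bases of the transcript is given for 3 pairs (GRCm38), with the bases that differ between parent and copy in capitals. The stretches are at chr17:24164823-24164882 (minus strand, Atp6v0c) and chr6:37806165-37806224 (plus strand, Atp6v0c-ps2), at chr17:24422158-24422217 (plus strand, Rnps1) and chr6:7982866-7982925 (minus strand, Gm9825), and at chr17:30612492-30612551 (minus strand, Glo1) and chr2:35340409-35340468 (plus strand, Gm13443). They differ at 1, 2 and 1 of the 60 bases:
Atp6v0c: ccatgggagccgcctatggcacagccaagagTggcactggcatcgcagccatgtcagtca
Atp6v0c-ps2: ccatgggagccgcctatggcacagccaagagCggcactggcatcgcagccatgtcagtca
Rnps1: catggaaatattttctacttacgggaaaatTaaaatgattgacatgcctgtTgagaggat
Gm9825: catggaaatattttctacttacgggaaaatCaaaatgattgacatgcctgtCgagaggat
Glo1: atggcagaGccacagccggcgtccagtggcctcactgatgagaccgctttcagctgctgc
Gm13443: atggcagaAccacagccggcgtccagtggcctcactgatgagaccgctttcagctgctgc

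Of the 6 genes that fell, Baiap3, which encodes a protein of vesicle release, was 28.8, 30.9, 26.7 and 30.99 CPM in wt and 2.54, 2.32 and 3.41 CPM in TKO mice. The wt mice agreed across both pairs and the TKO mice were far below them (log2FC -3.41 ± 0.186, adjusted p = 0.000239). Vmn2r97, a pheromone receptor gene of a large family whose members share reads, was 20.7, 22.8, 67.5 and 67.7 CPM in wt and 3.73, 3.19 and 2.30 CPM in TKO mice (log2FC -3.88 ± 0.559, adjusted p = 0.0479). Both lie on chromosome 17, at chr17:25242659-25256364 and chr17:18914300-18958087 (GRCm38). The others were the pseudogene D630033A02Rik (log2FC -2.18), Gm44777 (-2.28), annotated as antisense to a gene from which it cannot be told apart without strand, ENSMUSG00000118642.1 (-1.97), for which no name was matched, and Gm38226, at 1.496 to 2.505 CPM in wt and at or under 3 counts in each TKO mouse, at least 10.4-fold lower. Gm38226 shares 92.1% of its words with Noct, which encodes nocturnin, a protein of circadian expression, so its reads cannot be told apart from those of Noct with certainty. Noct with Gm38226 summed to 65.2 to 237 CPM in wt and 340 to 435 CPM in TKO mice, with no overlap, and Noct alone did not pass (log2FC 1.31, adjusted p = 0.41). The remaining called genes that rose were Hist1h2bg (2.70), of a histone family of near-identical genes, the T cell receptor segment Trav14d-3-dv8 (2.63), Gm21887 (3.04), which shares 62.0% of its words with Gm47283 on chromosome Y and summed with it to 18.1 to 39.02 CPM in wt and 135 to 197 CPM in TKO mice, Gm48369 (4.39), AC154766.1 (6.70) and AC165951.1, at least 105-fold higher and annotated as antisense.

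Of the 39 genes that passed, 9 lay on chromosome 17, where 718 genes were tested. Within 10 Mb of Cdkn1a 7 of 370 genes passed (1.89%), compared with 0.294% of all genes. They were Sik1, Tnfrsf12a, Dusp1, Glo1, AC154766.1 and AC165951.1 as higher and Baiap3 as lower. Within 10 Mb of Zmat3 1 of 66 passed (Spry1), and within 10 Mb of Bbc3 1 of 145 (Fosb). No test of this spread was made.

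Zmat3-/- mice, which share the missing Zmat3 gene with TKO mice, were compared with TKO mice directly, to ask which of the 39 genes differed between these genotypes. Their comparisons with wt share the same 4 wt mice, so the values are set side by side and no overlap of the 2 is given as a result. Between TKO and Zmat3-/- mice 16 of 13124 genes (0.122%) were called and 29 passed at any fold change (0.221%), among them 12 of the 39. These 12 were Gm9825, Rps2-ps10, Rps2-ps6, Atp6v0c-ps2, Gm13443, Hmga1b, AC165951.1, AC154766.1, Glo1, Baiap3, Vmn2r97 and Tnfrsf12a. Of these, 6 lie on chromosome 17 and the other 6 are copies of genes on chromosome 17. Tnfrsf12a was 2.94, 3.28, 5.11 and 4.86 CPM in Zmat3-/- mice, under the TKO mice (difference 1.58 ± 0.22 on the log2 scale, adjusted p = 0.016). Baiap3 was 32.1, 30.5, 37.8 and 40.9 CPM in Zmat3-/- mice (TKO minus Zmat3-/- -3.65 ± 0.16, adjusted p = 9.51e-07), and Glo1 was 78.3, 75.2, 81.1 and 79.2 CPM (1.44 ± 0.057, adjusted p = 3.83e-07).

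The other 27 of the 39 did not pass between TKO and Zmat3-/- mice or were not tested. Sik1 was 116, 128, 111 and 137 CPM in Zmat3-/- mice, a difference of 0.19 ± 0.084 (adjusted p = 0.983). Trib1 was 52.6, 53.4, 53.0 and 55.0 CPM (0.09 ± 0.079), Tnfaip3 425, 445, 455 and 452 CPM (0.14 ± 0.077), Dnajb9 60.4, 60.5, 52.2 and 60.03 CPM (0.07 ± 0.076) and Dusp1 114, 123, 106 and 124 CPM (0.09 ± 0.085). Fosb was 43.8, 42.2, 23.4 and 46.9 CPM, with a wider error (0.13 ± 0.32). Dusp5 lay further apart, at 107, 105, 87.0 and 77.5 CPM in Zmat3-/- mice (0.65 ± 0.18, adjusted p = 0.641). Eps8l1 was uneven in Zmat3-/- mice, at 26.9, 42.1, 0.668 and 5.95 CPM, and its difference was measured poorly (1.55 ± 0.78, adjusted p = 0.983). A p that misses the threshold does not show that the genotypes were alike. The targeted genes did not pass here either. Bbc3 was 17.3, 15.3, 16.7 and 19.98 CPM in Zmat3-/- mice (TKO minus Zmat3-/- -0.38 ± 0.13, adjusted p = 0.983), Cdkn1a 8.61, 7.70, 4.81 and 5.19 CPM (-1.12 ± 0.27, adjusted p = 0.384) and Zmat3 5.72, 5.33, 6.48 and 6.91 CPM (0.36 ± 0.15, adjusted p = 0.983).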

How the data were processed

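RNA of thymocytes was made into libraries with the TruSeq RNA Prep Kit v2 from 100 ng of total RNA and sequenced as paired reads. The authors quantified them with Salmon in nf-core/rnaseq and deposited estimated counts per gene, in whole numbers and not normalized, 1 column a mouse. GRCm38.p6, bcl2fastq and DESeq2 1.40.0 are named in the submitters' notes. Strand was not kept by this kit, and the authors' GENCODE release was M25.

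Of 54418 genes, 54166 were matched by identifier to GENCODE M21 for names and positions. Genes with 20 counts, scaled to the smallest library, in at least 3 mice were tested. Following the study's filter in part, Xist, rRNA, chromosome Y and immunoglobulin genes without a protein product were not tested, while its removal of obsolete Entrez identifiers was not applied. The comparison of TKO and wt mice used TMM factors and the quasi-likelihood test of edgeR 4.0.16, in R 4.3.3 with limma 3.58.1, and p-values were adjusted by Benjamini-Hochberg over all genes tested. SE was obtained as the size of the log2FC over the square root of the F statistic. Permutation tests were exact and two-sided. CPM uses TMM factors over 11 mice. Genes to be named were the targeted genes, every called gene, and in each list the members that passed and those highest and lowest in log2FC and highest in level. These were 161 genes, of which the text gives only some of the list extremes, and genes outside the rule, parents of copies and markers included, were chosen after their values were seen. The members and lists were chosen with earlier results of these data known. Lists are described by counts, with no set test. The labels give separate samples but not litters, and p-values measure the spread between these mice. Folds against mice at or under 3 counts use 3 counts as the floor. On simulated counts for TKO against wt (13260 genes), 96% of 100 genes changed by a log2 of 3 were called and 21% of 100 changed by a log2 of 1 passed. Beside each of these shares 5 false calls were recorded. Alternatives used DESeq2 1.42.0, RLE factors, other filters, sva 3.50.0, Xist, the replicate number, and mice left out.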

Additional observations from a re-analysis of the deposited data

Results flagged for a closer look

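Among the 161 genes named by the rule, wt was tested for a mouse far from the other 3, and 7 genes had one. For continuous values chance alone gives such a mouse in about 1 in 20 groups. That rate does not hold for 4 of the 7, where the other wt mice were at 0 and any count stands apart, namely Atp6v0c-ps2 (0.0394 CPM in wt mouse 4), AC165951.1 (0.0394 CPM in wt mouse 4), Gm13443 (0.118 CPM in wt mouse 4) and AC154766.1 (0.147 CPM in wt mouse 2). All of these were far below the TKO mice. Trib2, a relative of Trib1, was 100.4 CPM in wt mouse 1 and up to 131 CPM in the others, with TKO mice at 117 to 133 CPM. Mxd3, a partner of MAX, was 62.7 CPM in wt mouse 1 and as low as 37.1 CPM in the others. Hbb-bs, a beta-globin gene of red cells, was 3529 CPM in wt mouse 3 and as low as 378 CPM in the others, and none of these 3 genes passed between TKO and wt mice.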

How the results depend on the processing

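The 32 genes called were 103 with DESeq2 (55 higher, 48 lower), 51 with no filter on low counts, 68 with all 11 mice in the fit (39 higher, 29 lower), 142 with only the mice of low Xist level (47 higher, 95 lower), 176 with 1 surrogate variable (115 higher, 61 lower), and 32, 31, 33 and 37 with RLE size factors, a filter of 50 counts, no gene class left out and Xist as a term. With a mouse left out they were 15 to 34. Without TKO mouse 1, 2 or 3 they were 15, 15 and 17. Chosen after the data were seen, leaving out wt mice 1 and 2 gave 193 (77 higher, 116 lower), leaving out wt mice 3 and 4 gave 661 (578 higher, 83 lower), and calls against both pairs gave 61. The cause of these moves was not tested. All 32 were called with DESeq2, with no filter, with 11 mice, with a surrogate variable and without wt mice 3 and 4.

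The targeted genes were lower under every alternative run. Leaving out a mouse gave log2FC of -1.501 to -1.05 for Zmat3, -0.60 to -0.37 for Bbc3 and -1.30 to -0.80 for Cdkn1a. Zmat3 passed both thresholds with only mice of low Xist level (-1.83, adjusted p = 0.00565) and without wt mice 1 and 2 (-1.80), and Cdkn1a without wt mice 3 and 4 (-1.59). With 1 surrogate variable all 3 passed in adjusted p (0.000739, 0.0299 and 0.0321) but not in fold.

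The replicate numbers are shared between genotypes. Mice of the same number correlated at 0.0595, 0.284 and 0.400 in their deviations from the group means. Among wt mice 1 to 3, TKO mice 2 and 3 correlated best with the mouse of their own number, and TKO mouse 1 with wt mouse 2 (0.248). So few mice cannot tell whether the numbers pair the mice. The fit with the replicate block called 16 genes, of which 15 were shared with the 32, and the log2FC was -0.91 for Zmat3, -0.48 for Bbc3 and -1.14 for Cdkn1a.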

Other observations

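Glucocorticoid response genes, a list that also holds Bcl2l11 and Cxcr4, had 1 called member of 17 tested, Dusp1, beside 0.196% of all genes called as higher, and 6 that were higher and 1 that was lower than both wt pairs at an adjusted p under 0.05 at any fold change, compared with 0.905% and 0.837% of all genes. The values named here were chosen after they were seen. Sgk1, a kinase that glucocorticoids induce, was 21.2, 25.8, 25.2 and 26.3 CPM in wt and 52.0, 48.7 and 40.1 CPM in TKO mice (log2FC 0.92, adjusted p = 0.0706 by edgeR's quasi-likelihood test over 7 mice). Tsc22d3, which encodes the glucocorticoid-induced leucine zipper, was 84.0, 83.5, 65.2 and 69.8 CPM in wt and 99.5, 151 and 116 CPM in TKO mice (log2FC 0.67, adjusted p = 0.3). In both genes all TKO mice lay above all wt mice. The clock gene Per1 was 27.7, 31.2, 44.8 and 40.2 CPM in wt and 56.1, 60.9 and 62.2 CPM in TKO mice.

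Among nuclear RNAs, Mir142hg, the host transcript of a microRNA of blood cells, was 14.9, 11.4, 25.6 and 24.5 CPM in wt and 3.83, 5.397 and 3.58 CPM in TKO mice (log2FC -2.18, adjusted p = 0.0663), and 5.34, 5.91, 4.71 and 3.77 CPM in Zmat3-/- mice. TKO and Zmat3-/- mice both lay below all wt mice. Interferon-stimulated genes gave 0 called of 35 tested, MHC class I presentation 0 of 18, SR splicing factors 0 of 22 and hnRNPs with DHX9 0 of 28, which is near the background of 0.241% of all genes called. Of the SR factors 5 had every TKO mouse below every wt mouse, compared with 7.02% of all genes. Rnps1, the parent of Gm9825, was among them (log2FC -1.22, adjusted p = 0.138), and was lower than wt mice 1 and 2 (adjusted p = 0.000297) and wt mice 3 and 4 (adjusted p = 0.00271). Reads may be divided between Rnps1 and Gm9825, so the size of this fall is uncertain. Their sum was 107 to 197 CPM in wt and 86.9 to 104 CPM in TKO mice. Among the hnRNPs Hnrnph3 was lower than both pairs (adjusted p = 0.0121 and 0.0429), at 72.4 to 81.1 CPM in wt and 56.3, 57.4 and 47.4 CPM in TKO mice, and Irgm2 was the interferon-stimulated gene that was lower than both.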
